A study of Mus musculus with 6 samples.

Results

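The Ms4a gene cluster of the mouse encodes a family of small proteins that span the membrane several times and have both ends in the cytoplasm. Most family members are found on blood cells, where the best known act beside other receptors: Ms4a1 encodes CD20, the B cell surface protein that therapeutic antibodies bind, and Ms4a2 encodes the beta chain of the high-affinity IgE receptor of mast cells and basophils. Other members are known from monocytes, macrophages and T cells, and for several of them the function is little understood. The members described here are the 9 genes Ms4a1, Ms4a2, Ms4a4b, Ms4a4c, Ms4a6b, Ms4a6c, Ms4a6d, Ms4a7 and Ms4a8a, taken by gene symbol out of 19938 genes tested. Each of the 9 had a single probe set with that symbol alone. The array also carried 10 other Ms4a genes, which are given beside them.

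Expression came from 6 Affymetrix Mouse Gene 1.0 arrays, 3 labelled as dendritic cells and 3 as macrophages. Both populations grew in bone marrow cultures of C57B/6 mice kept for 6 days in 20 ng/ml recombinant GM-CSF, the granulocyte-macrophage colony-stimulating factor, and both were left unstimulated. No sample lacked GM-CSF, so nothing below compares its presence with its absence. The sources used here do not give how the populations were parted or whether replicates were separate mice, so p-values measure only the spread between these arrays, which may be technical. In RNA from whole populations, fewer cells that express a gene and less RNA per cell cannot be told apart.

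Values are log2 RMA values, in which a step of 1 is a doubling, and each difference is dendritic minus macrophage with its standard error (SE), so that a negative value is lower in the dendritic arrays. The median probe set of an array lay at 4.79 to 4.96, which serves as a rough guide to dim signals, since there are no detection calls. Genes were called at an adjusted p under 0.05 in limma, which 11.6% of all genes passed as lower and 9.98% as higher. Of 15 macrophage markers 14 were called lower in the dendritic population, and of 17 dendritic cell markers 11 were called higher, as the labels have it. Exceptions were Xcr1, a chemokine receptor of cross-presenting dendritic cells, listed at 3.45 to 3.89 on all arrays, and Vsig4, a complement receptor of tissue macrophages, at 2.62 to 2.89. Itgax (CD11c), often used to mark dendritic cells, and Clec9a, a receptor for dead cells, were the 2 dendritic markers that were called lower. Itgax differed by -2.52 ± 0.44 and Clec9a by -2.57 ± 0.16. The antigen presentation genes Cd74 (-0.23 ± 0.12), H2-Ab1 (-0.39 ± 0.13) and Ciita (0.19 ± 0.27) were not called, and the first 2 had every macrophage array above every dendritic one.

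The cluster lies on chromosome 19, between Ccdc86 and Oosp2 in the order of the RefSeq gene table. Promoters, here the 250 bases before an annotated transcription start, were found for 7 of the 9 members in the RefSeq promoter table of the build GRCm38.p6. None was found for Ms4a1 and Ms4a6d, so what follows on promoters leaves out Ms4a6d, the member with the largest difference. Shown first are the promoters of 2 neighbours that differed between the populations, Ms4a6b (chr19:11518309-11518558, plus strand) and Ms4a6c (chr19:11469118-11469367, plus strand). The capitals mark the longest stretch of identical bases that they share.
Ms4a6b: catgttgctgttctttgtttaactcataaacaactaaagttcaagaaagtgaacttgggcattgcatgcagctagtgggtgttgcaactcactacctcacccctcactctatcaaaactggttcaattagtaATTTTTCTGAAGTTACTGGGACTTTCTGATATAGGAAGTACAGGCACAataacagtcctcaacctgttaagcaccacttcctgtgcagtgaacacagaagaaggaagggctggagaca
Ms4a6c: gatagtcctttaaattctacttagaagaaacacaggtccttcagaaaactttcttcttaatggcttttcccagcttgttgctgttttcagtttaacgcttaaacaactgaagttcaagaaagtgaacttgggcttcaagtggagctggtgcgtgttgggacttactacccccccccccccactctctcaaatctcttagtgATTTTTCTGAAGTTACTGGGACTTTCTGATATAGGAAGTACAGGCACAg

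That stretch is 48 bases long. It ends 2 bases before the start in Ms4a6c and 71 bases before it in Ms4a6b, so the same sequence sits at different distances from the annotated starts. A local alignment of the pair held 148 identical bases in 180 columns (82.2%). The next promoters are those of Ms4a4b (chr19:11443308-11443557, plus strand) and Ms4a4c (chr19:11407411-11407660, plus strand), the other related pair, shown because neither gene passed the test. The capitals again mark the longest identical stretch.
Ms4a4b: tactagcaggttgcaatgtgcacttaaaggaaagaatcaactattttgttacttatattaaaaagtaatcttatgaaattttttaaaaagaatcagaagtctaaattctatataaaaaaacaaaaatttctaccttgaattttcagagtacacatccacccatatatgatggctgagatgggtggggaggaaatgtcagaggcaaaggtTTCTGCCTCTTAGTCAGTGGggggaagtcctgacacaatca
Ms4a4c: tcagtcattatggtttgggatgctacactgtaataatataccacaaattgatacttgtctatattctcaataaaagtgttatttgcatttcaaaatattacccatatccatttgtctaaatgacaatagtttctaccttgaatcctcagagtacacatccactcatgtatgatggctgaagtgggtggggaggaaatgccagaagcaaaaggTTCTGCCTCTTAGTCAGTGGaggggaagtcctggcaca

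Here the stretch is 20 bases long, within an alignment of 117 identical bases in 133 columns (88.0%). Over all 171 pairs of the 19 Ms4a promoters the median longest stretch was 8 bases, and the longest after these pairs was 12. The probe sequences of the array were not used here, so whether transcripts of such close relatives share signal on a probe set was not tested, and values of Ms4a6b against Ms4a6c and of Ms4a4b against Ms4a4c are uncertain to that degree.

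Motifs were searched as letters on both strands. The core GAGGAA of sites for PU.1, a transcription factor of myeloid and B cells, was in the promoters of Ms4a4b (64 to 59 bases before the start) and Ms4a4c (61 to 56), and in 23.3% of all 32851 promoters of this length. The letters TTNNGNAA, a loose form of C/EBP sites, were in 7 of the 8 member promoters (Ms4a7 has 2 starts) and in 36.8% of all. They were in 12 of the 19 Ms4a promoters, members included. The Ms4a6b match and 1 Ms4a6c match lie within the 48 identical bases that the pair shares, so the 8 are not independent. The 8 were 30.4% to 47.2% G and C, and the share of all promoters was not matched for that. The interferon response element (GAAA, any 2 bases, GAAA), the PU.1-IRF composite (GGAA, any 2 bases, GAAA) and the E-boxes CACGTG and CATGTG were in none of the 8, against 2.98%, 2.30%, 6.02% and 12.3% of all promoters. These searches may overlap in the bases they match, and a match is only a description of the letters.

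Among the 9 members, 4 were lower in the dendritic population at a Benjamini-Hochberg adjusted p under 0.05 in limma, and 0 were higher, also at an unadjusted p under 0.05. Over all genes 21.6% were called, 11.6% lower and 9.98% higher. All 4 members differed by at least 1 and 3 of them by at least 3, where the shares of all genes called lower by such amounts were 5.82% and 0.863%. The 4 genes were Ms4a6b, Ms4a6c, Ms4a6d and Ms4a7, all known from monocytes or macrophages. The other 5 were not called, and their adjusted p lay between 0.0833 (Ms4a8a) and 0.897 (Ms4a4b). The median difference of the members was -0.74, and that of all genes was 0.03.

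For the 4 called members the dendritic values lay below the array median and were not shown to be above background. Their fold changes are therefore ratios between RMA values, which can understate the true ratio.

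Ms4a6d, which encodes a protein reported to pair with Vsig4 in macrophages, showed the largest difference of the members. Its log2 values were 3.92, 3.97 and 4.08 on the dendritic arrays and 9.37, 8.30 and 7.86 on the macrophage arrays (replicates 1, 2 and 3 in each). The populations did not overlap, and the dendritic arrays, all below the array median, lay within 0.16 of each other. The difference was -4.52 ± 0.32 (SE, n = 3 per population), 22.9-fold lower in the dendritic population (limma adjusted p = 1.5e-05). Vsig4 itself was dim in both populations and differed by 0.13 ± 0.12 (adjusted p = 0.582).

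Ms4a7, a macrophage member of the family, came next in size. Its log2 values were 3.50, 3.28 and 3.49 on the dendritic arrays and 8.79, 6.56 and 6.16 on the macrophage arrays. Again every macrophage array lay above every dendritic one, but the macrophage arrays themselves spread over 2.63. The difference was -3.75 ± 0.56, or 13.4-fold (adjusted p = 0.00126).

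Ms4a6c, a close relative of Ms4a6b and Ms4a6d, had values of 3.65, 4.19 and 4.34 on the dendritic arrays. On the macrophage arrays it stood at 9.09, 7.34 and 6.29, above the dendritic range throughout. It differed by -3.51 ± 0.58, or 11.4-fold (adjusted p = 0.00209).

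Ms4a6b held the smallest difference of the 4. Its dendritic values were 3.80, 3.67 and 3.67, and its macrophage values 7.97, 5.43 and 5.11. Macrophage replicates 2 and 3 were thus only a little above the array median, and replicate 1 stood far above both. The difference was -2.46 ± 0.62, or 5.49-fold (adjusted p = 0.0197). Leaving out dendritic replicate 2 (adjusted p = 0.0685) or dendritic replicate 3 (0.0591) ended the call. It was also lost when all probe sets were tested (0.0668) and with a trended, robust variance (0.0629). Its adjusted p spanned 9.78e-05 to 0.0685 across the alternatives.

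**Figure D1:**
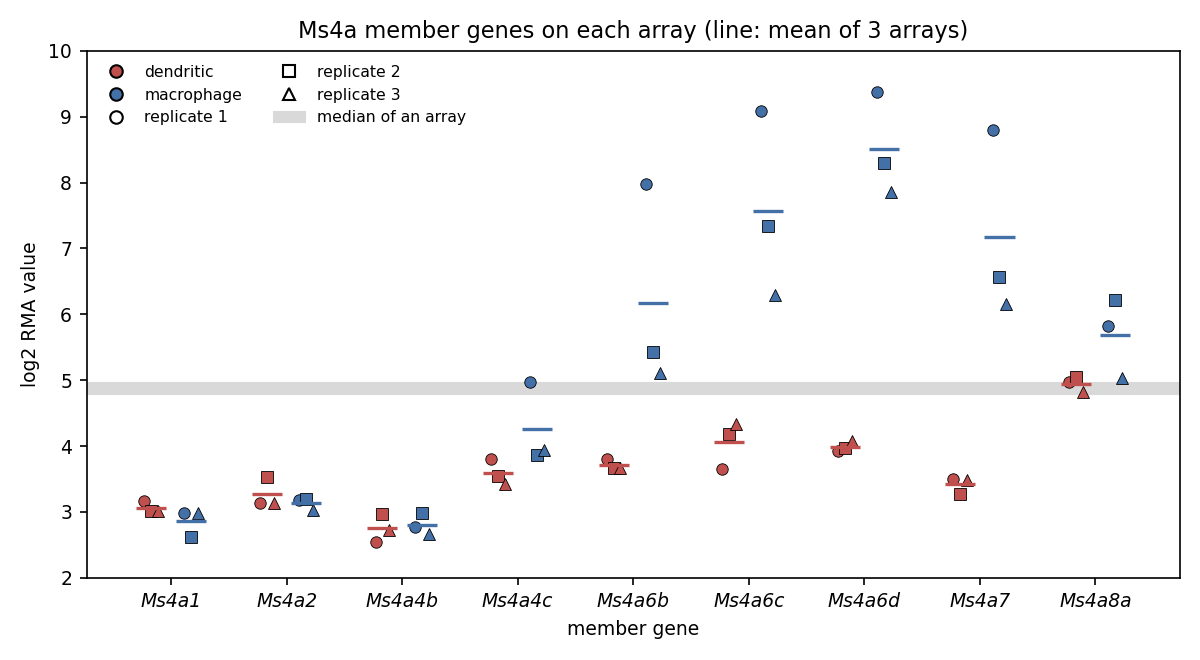
Log2 RMA value (vertical axis) of each of the 9 members (horizontal axis) on the 3 dendritic and 3 macrophage arrays, with the mean of each population as a line and the range of array medians as a grey band. For Ms4a6b, Ms4a6c, Ms4a6d and Ms4a7 all macrophage points lie above all dendritic points, and macrophage replicate 1 (blue circle) is the highest.

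Ms4a4c and Ms4a8a were lower in mean but not called in the main test. Ms4a4c, a relative of the T cell gene Ms4a4b, had values of 3.80, 3.55 and 3.43 on the dendritic and 4.97, 3.86 and 3.94 on the macrophage arrays. The populations did not overlap, though macrophage replicates 2 and 3 were close above the highest dendritic array. Its difference of -0.66 ± 0.27 had an adjusted p of 0.139 in limma (95% interval -1.29 to -0.04). A fit with replicate numbers as blocks called Ms4a4c (adjusted p = 0.0271). Without macrophage replicate 1 its difference was -0.31 (adjusted p = 0.276). Over all alternatives its adjusted p ranged from 0.0271 to 0.327.

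Ms4a8a, which has been described in alternatively activated macrophages, did not follow the same array order. Its values were 4.97, 5.05 and 4.82 on the dendritic and 5.82, 6.21 and 5.03 on the macrophage arrays, so macrophage replicate 2 was highest and replicate 3 fell among the dendritic values. The difference was -0.74 ± 0.26 (adjusted p = 0.0833). The fit with replicate numbers as blocks called Ms4a8a (-0.74, adjusted p = 0.0214), as did array weights (-1.03, 0.0170) and leaving out macrophage replicate 3 (-1.06, 0.00387). Its adjusted p spanned 0.00387 to 0.265 across the alternatives.

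The receptor genes of B cells and mast cells and the T cell member were dim everywhere. Ms4a1 (CD20) had values of 3.16, 3.01 and 3.01 on the dendritic and 2.99, 2.62 and 2.99 on the macrophage arrays, a difference of 0.19 ± 0.14 (adjusted p = 0.464). Its dendritic values lay just above the macrophage values, by less than the spread among the macrophage arrays. Ms4a2, the beta chain of the IgE receptor, stood at 3.13, 3.53 and 3.14 against 3.18, 3.19 and 3.03, and differed by 0.13 ± 0.15 (adjusted p = 0.669). Ms4a4b, a modulator of T cell activation, stood at 2.55, 2.97 and 2.73 against 2.77, 2.98 and 2.66, and differed by -0.05 ± 0.15 (adjusted p = 0.897). The 95% intervals were -0.13 to 0.52 for Ms4a1, -0.20 to 0.47 for Ms4a2 and -0.40 to 0.29 for Ms4a4b, so larger differences on this scale were outside them, while dim RMA values compress true differences.

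In all, the populations did not overlap for 5 members with the macrophage arrays higher and for 1 with the dendritic arrays higher, and overlapped for 3. Over all genes the shares without overlap were 34.0% in all, 16.7% with the macrophage and 17.3% with the dendritic arrays higher. No filter on level was applied in the main test. A filter at the 30th percentile of mean level (4.15) would keep 5 members and a filter at the median gene (5.14) 4, and Ms4a6b, whose mean over the 6 arrays was 4.94, falls between these.

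In the wider cluster the called genes lay near each other on the chromosome, with uncalled genes among them. From Ms4a7 to Ms4a6d, a stretch marked off after the values were seen, 8 Ms4a genes were measured and 5 were called, all lower in the dendritic population. Over all genes 11.6% were called lower. The stretch ends at the outermost called Ms4a genes, so that none was called outside it follows from this choice. Outside the stretch 11 Ms4a genes were measured, 1 of them (Ms4a8a) with an unadjusted p under 0.05 in limma, and differences ran from -0.74 to 0.26. The fifth gene was Ms4a4a, which is no member and encodes a macrophage protein reported to associate with the beta-glucan receptor Dectin-1. Its values were 6.58, 6.41 and 5.36 on the dendritic and 8.85, 7.25 and 7.02 on the macrophage arrays, a difference of -1.59 ± 0.48 (adjusted p = 0.0432). That call was held in 10 of 16 alternatives, with adjusted p from 0.00240 to 0.147, and was lost among others without macrophage replicate 1 (-1.02, 0.0594). The gene of Dectin-1, Clec7a, was lower as well, at 6.12 to 6.55 on the dendritic and 8.59 to 9.34 on the macrophage arrays (adjusted p = 2.6e-05).

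Within the stretch the called genes were not all of it. Ms4a4b and Ms4a4c lie between Ms4a4a and Ms4a6c, and Ms4a4d lies between Ms4a6b and Ms4a6d. Ms4a4d was at 2.83 to 3.16 on the dendritic and 2.55 to 2.77 on the macrophage arrays, a difference of 0.30 ± 0.14 in the other direction that was not called (adjusted p = 0.194). Outside the stretch, Ms4a3, a gene of granulocyte and monocyte precursors, lay between 3.84 and 4.45 on all arrays (-0.02 ± 0.17). Ms4a10 and Ms4a15 differed by 0.09 ± 0.24 and 0.17 ± 0.16. Ms4a12, Ms4a13, Ms4a19, Ms4a20, Ms4a5 and Ms4a4d stayed between 2.06 and 3.94 on every array.

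**Figure D2:**
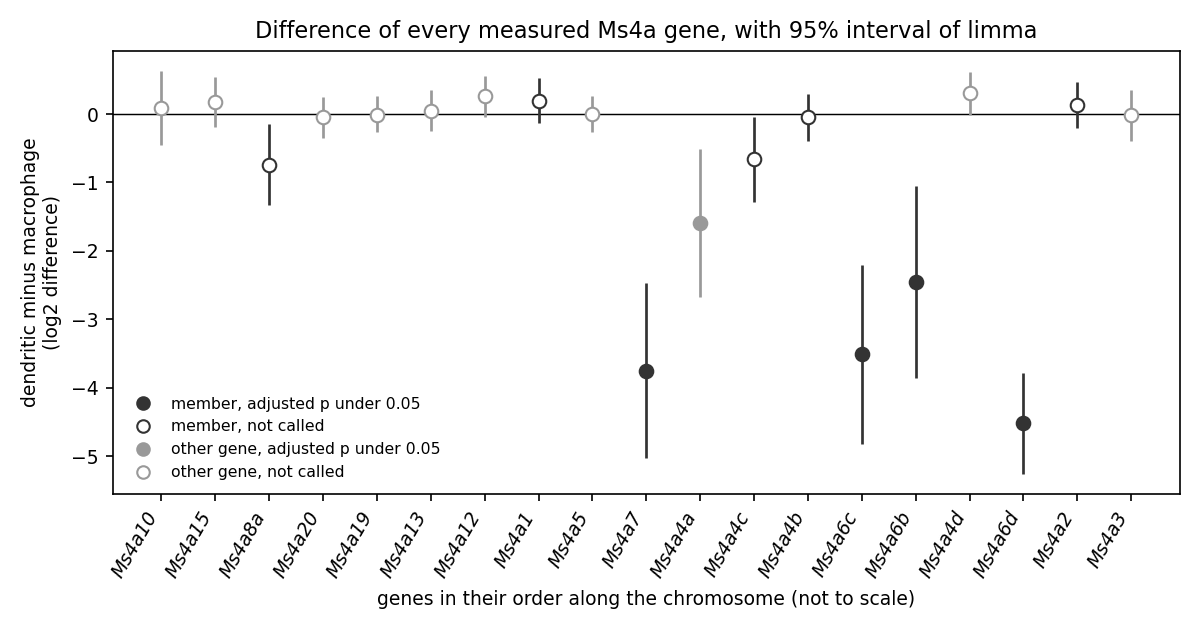
Dendritic minus macrophage difference (vertical axis, log2) with its 95% interval for the 19 measured Ms4a genes in chromosomal order (horizontal axis, not to scale). Filled points passed an adjusted p of 0.05 in limma, black marks members and grey other Ms4a genes. The 5 filled points lie between Ms4a7 and Ms4a6d.

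Tmem176a and Tmem176b, which encode relatives of the Ms4a proteins and lie on another chromosome, moved the other way. Tmem176a stood at 9.71, 9.45 and 9.42 on the dendritic and 8.68, 6.38 and 6.94 on the macrophage arrays, a difference of 2.19 ± 0.48 (adjusted p = 0.0101). Tmem176b stood at 10.09, 9.92 and 9.85 against 9.21, 6.81 and 7.45 (2.13 ± 0.50, adjusted p = 0.0136). As with the called Ms4a members, macrophage replicate 1 was the highest macrophage array, and here that brought it towards the dendritic values. The call of Tmem176b ended without macrophage replicate 3 (1.94, adjusted p = 0.0546), with a trended, robust variance (0.0504) and with all probe sets tested (0.0502). Its adjusted p spanned 1.99e-05 to 0.0546 across the alternatives.

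Macrophage replicate 1 stood apart for the called members. It exceeded the mean of macrophage replicates 2 and 3 by 2.70 for Ms4a6b, 2.43 for Ms4a7, 2.27 for Ms4a6c and 1.29 for Ms4a6d, and by 1.07 for Ms4a4c. For these 5 of 9 members it was at least 1 above both other macrophage arrays, as it was for 103 of all 19938 genes (0.517%). Dendritic replicate 1 showed no such excess for them: it differed from the mean of the other dendritic arrays by 0.13 for Ms4a6b, 0.12 for Ms4a7, -0.61 for Ms4a6c, -0.10 for Ms4a6d and 0.32 for Ms4a4c.

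Some markers of other myeloid cells moved with that array. Of 10 measured monocyte markers, F13a1 (clotting factor XIII, 1.70 above the mean of the others), the fractalkine receptor Cx3cr1 (1.88), the plasma protein haptoglobin Hp (2.23), fibronectin Fn1 (1.75) and Plac8 (1.21) were higher on macrophage replicate 1. Ccr2 (0.41), Ifitm3 (0.17), Nr4a1 (0.10) and Cd177 (0.04) were little higher there, and Chil3 was lower (-0.57). The list ranged from -0.57 to 2.23, with a median of 0.81, and its mean level was 7.61 to 8.58 on the macrophage and 5.48 to 5.99 on the dendritic arrays. Of 14 neutrophil and granulocyte precursor markers the excess ran from 0.09 to 3.11, with a median of 1.07, and their mean level was 6.27 to 7.40 on the macrophage and 5.82 to 6.77 on the dendritic arrays. Several neutrophil genes stood higher on replicate 1 of both populations, as did the resistin-like gene Retnlg (3.11 and 3.10) and the antimicrobial peptide gene Camp (1.72 and 1.52). On dendritic replicate 1, Fn1 (2.70) and Hp (0.85) were higher too, while F13a1 (-0.10) and Cx3cr1 (-0.12) were not. The 15 macrophage markers had a median excess of 0.31, from -0.15 to 0.85. Whether such other myeloid cells were present, and what part they had in the Ms4a values, was not tested.

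**Figure D3:**
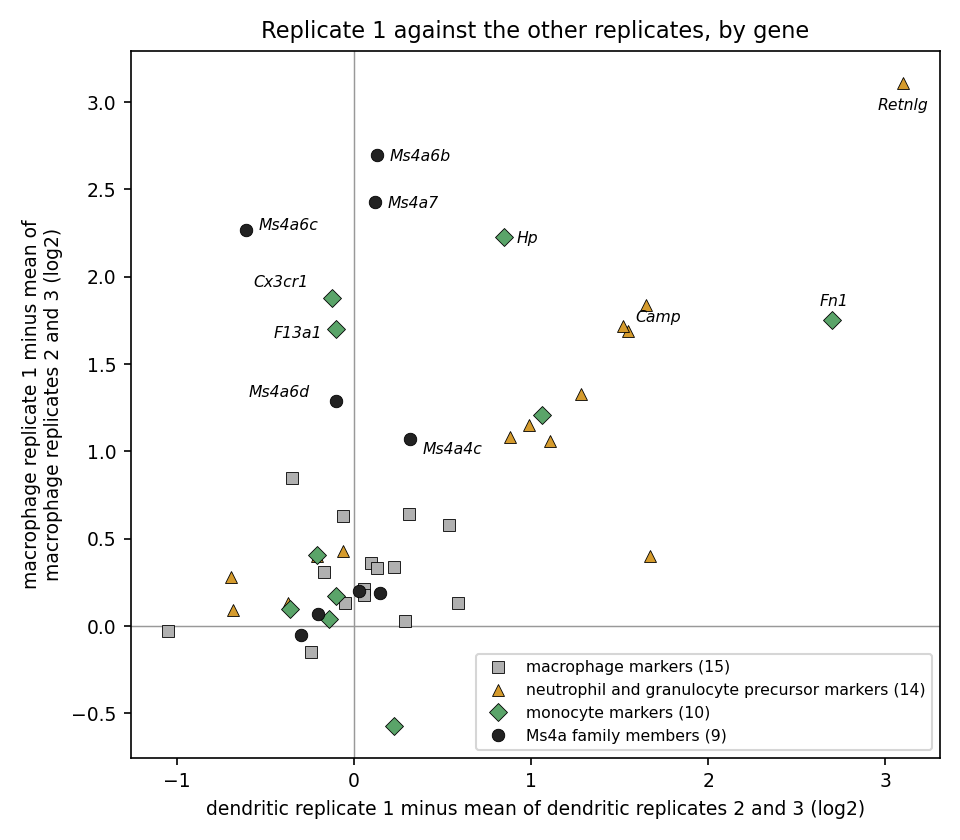
Excess of replicate 1 over the mean of replicates 2 and 3 (log2) in the dendritic population (horizontal axis) and the macrophage population (vertical axis), 1 point per gene for the members and the macrophage, monocyte and neutrophil marker lists. Ms4a6b, Ms4a7, Ms4a6c and Ms4a6d lie between 1.29 and 2.70 on the vertical axis and between -0.61 and 0.13 on the horizontal one, while neutrophil genes such as Retnlg and Camp lie high on both.

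The direction and the calls of these members did not need that array. Without macrophage replicate 1 the differences were -4.09 for Ms4a6d (adjusted p = 1.17e-06), -2.94 for Ms4a7 (6.03e-06), -2.75 for Ms4a6c (0.000276) and -1.56 for Ms4a6b (0.000139). The sizes were smaller, most for Ms4a6b, which moved by over 1.5 times from -2.46, and the same 4 members were called. Without replicate 1 of both populations the values were -4.06, -2.97, -2.55 and -1.60 in the same order, again called. Over 6 settings that leave out 1 array and the 1 that leaves out both, Ms4a6c ranged from -4.15 to -2.55, Ms4a6d from -4.85 to -4.06 and Ms4a7 from -4.25 to -2.94.

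**Figure D4:**
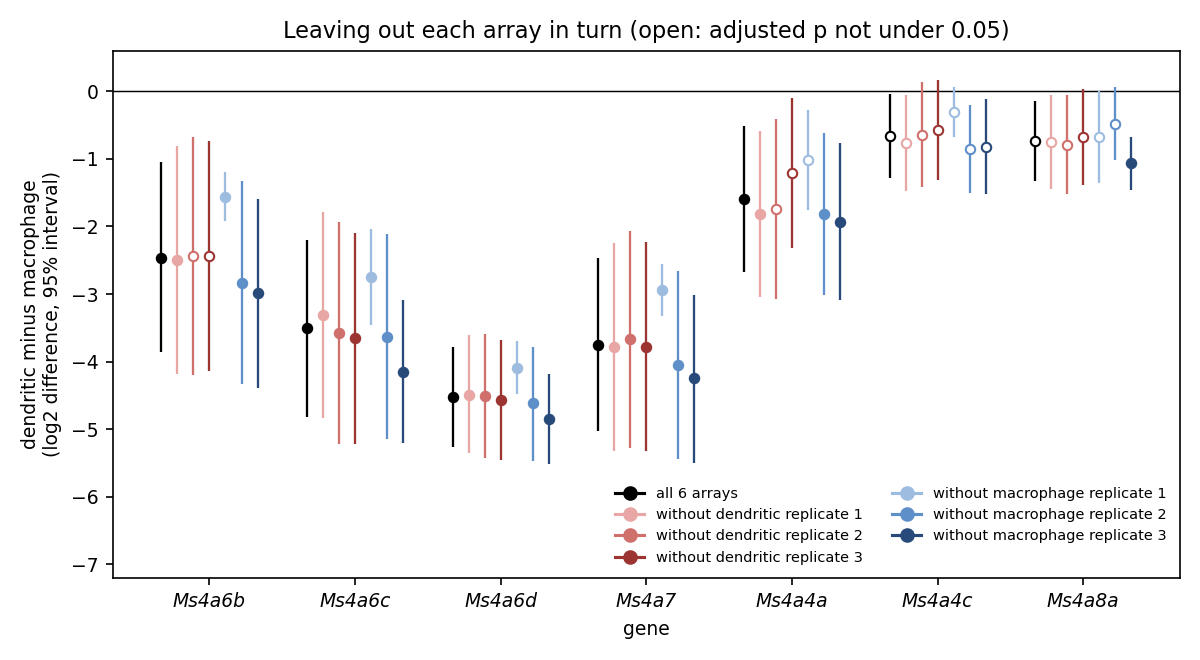
Dendritic minus macrophage difference (vertical axis, log2) with its 95% interval for 7 Ms4a genes (horizontal axis), with all 6 arrays and with each array left out in turn. Filled points had an adjusted p under 0.05. Without macrophage replicate 1 (light blue) the differences of Ms4a6b, Ms4a6c, Ms4a6d and Ms4a7 are smaller and their intervals narrower.

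Genes with the profile most like that of each called member were found by the root mean square (RMS) distance between log2 profiles over the 6 arrays, each centred on its own mean. Ms4a6d was nearest to Igsf6, an immunoglobulin superfamily gene of myeloid cells (distance 0.20), followed by Ly6e (0.23) and the receptor gene Cd300ld (0.24). Ms4a7 was nearest to the metalloproteinase inhibitor gene Timp2 (0.38), Ifi207 (0.39) and the endosomal RNA sensor gene Tlr8 (0.39). Ms4a6c was nearest to the growth factor gene Igf1 (0.37), Timp2 (0.38) and Ifi207 (0.46). Ms4a6b was nearest to the cytochrome gene Cyp4f18 (0.30), the adhesion receptor gene Adgre4 (0.35) and the lipid transporter gene Abca9 (0.36). All of these were lower in the dendritic population, from -2.26 (Adgre4) to -4.55 (Ly6e), and macrophage replicate 1 was the highest array for each. Both traits follow from choosing genes by likeness of profile on the same arrays. Among the 4 called members the closest profiles were those of Ms4a6c and Ms4a7 (0.33), closer than Ms4a6c and Ms4a6b (0.64). The dim members, whose profiles are nearly flat, lay closer still, as did Ms4a2 and Ms4a4b (0.12).

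Genes of the IgE receptor complex, to which the product of Ms4a2 belongs, were read from a list. Whether these cells carry that receptor was not tested. Of 14 measured genes of the IgE receptor complex and its proximal signalling, 8 were lower in the dendritic population and 2 were higher. Over all genes 11.6% were called lower and 9.98% higher. The median difference of the list was -0.58. The alpha chain Fcer1a, which binds IgE, was dim like Ms4a2, at 2.83 to 3.26 on all arrays (adjusted p = 0.963). The shared gamma chain Fcer1g, which also serves Fc receptors for IgG, was bright and lower in the dendritic population, at 9.42, 9.97 and 9.76 against 11.57, 11.34 and 11.21 (adjusted p = 0.00013). The adaptors Lat2 and Lcp2 were lower too (adjusted p = 6.41e-07 and 0.000384), and the kinase Fyn (8e-05) and the phospholipase Plcg1 (0.000162) were the higher members.

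Lineage markers that go with Ms4a1, Ms4a2 and Ms4a4b went both ways, and the counts below stand beside a share of 21.6% called over all genes. The median differences were 0.10 for B, 0.02 for mast and 0.07 for T and NK cells. Of 15 measured B lineage genes 2 were higher (Spib, 4.28, and Cd79a, 0.81) and 1 was lower (Cd22, -1.47). Spib, a transcription factor that plasmacytoid dendritic cells also use, was bright in the dendritic population (8.50 to 9.28 against 4.60 to 4.91), and Cd79a was dim (2.80 to 4.07). The B cell genes Pax5, Ebf1, Cd79a and Cd79b lay between 2.80 and 6.02 on all arrays. Of the list, Blnk, Cd72 and Cd79b were above the array median on all 6 arrays and were not called. Of 15 mast cell and basophil markers Kit, also a receptor of early progenitors, was higher (mean 7.39 against 4.62) and Mitf lower (-2.35). The granule and receptor genes Fcer1a, Cpa3, Cma1, Mcpt4 and Tpsb2 lay between 2.83 and 4.91. The basophil protease gene Prss34 (5.06 to 6.42) and the transcription factor gene Gata2 (5.06 to 6.17, 0.57 ± 0.21, adjusted p = 0.0853) were above the array median on all 6 arrays. Of 16 T and NK cell markers Cd8a, which some dendritic cells carry, was higher (7.51 to 7.81 against 4.76 to 4.88), as was Klrd1 (3.54), and 0 were lower in limma (1 at an unadjusted p under 0.05), and the T cell receptor chains Cd3d, Cd3e and Cd3g lay between 2.85 and 5.71. Cd3e, Cd6, Prf1 and Thy1 were above the array median on all 6 arrays and were not called. In the blocked fit 3 B lineage genes were lower and 2 mast cell markers higher.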

How the data were processed

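RNA of 3 dendritic and 3 macrophage samples was measured on Affymetrix arrays. The deposited values are log2 values that the authors made with RMA in R 3.0.2, as the submitters' processing notes list. This method compresses dim signals. Its set of arrays, filters and genome build were not given in the sources.

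Of 35556 probe sets, 21789 had 1 gene symbol in the platform table. The brightest probe set per gene gave 19938 genes. They were tested with limma 3.58.1 (lmFit, eBayes, 2-sided, population as the term, Benjamini-Hochberg adjustment) in R 4.3.3, and called at an adjusted p under 0.05. Promoters were read with Python 3.11.15, pandas 2.3.3 and Biopython 1.88, and plots drawn with matplotlib 3.10.9. Members and lists were chosen with earlier results of these data known. Named genes are the members, other Ms4a genes, set marker genes, called list members with large differences, the flanking genes and the 3 nearest profiles of each called member. A few others, such as Ms4a19, Ms4a20 and examples from lists, were named after their values were seen.

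Deviations of same-numbered samples correlated across genes (r of 0.385, 0.147 and 0.272 for numbers 1, 2 and 3), so a fit with the numbers as blocks was tried. The labels do not say whether the numbers pair samples, and the main test has no block. Dendritic number 2 correlated slightly more with macrophage number 3 (0.155), and dendritic number 3 with macrophage number 2 reached 0.128. Only number 1 was thus clearly matched to its own number. Other alternatives were 2 scalings, 2 level filters, trended variance, array weights, averaged probe sets, all probe sets and leaving out arrays. In a test on artificial data for this comparison (19938 genes), 4 of 67 log2 differences of 0.5, 49 of 67 of 1 and 63 of 66 of 2 were recovered, with 10 false calls among 126. Only 200 of the 19938 artificial genes were given a difference, and noise was drawn separately for each array. In the real data 4312 genes were called and at least the samples numbered 1 deviated together, so these rates need not hold there. The number of arrays limits the precision.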

Additional observations from a re-analysis of the deposited data

How the results depend on the processing

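The 4 member calls were recomputed under 16 alternatives. Ms4a6c, Ms4a6d and Ms4a7 were called lower in the dendritic population in all 16, and Ms4a6b in 11 of the 15 that gave a value. These tallies include settings that add little. The 2 level filters use the mean over all 6 arrays, and called members that passed did so only through their macrophage values. Averaging probe sets leaves the values of each member as they were, since each has a single probe set. Ms4a6b was not called with a trended, robust variance (-2.46) or when all probe sets were tested (-2.46), and ranged from -2.99 to -1.56 when arrays were left out. The fit with replicate numbers as a block called Ms4a4c (-0.66, limma adjusted p = 0.0271). Ms4a8a was called with the block (-0.74) and with array weights (-1.03), and ranged from -1.06 to -0.48 when arrays were left out. The block changed no other call among the members. The number of members called ran from 3 to 6, and the number of all genes called from 3311 to 5901 (4312 in the main test, 5207 with the block). Members under a level filter gave no value there. Centring on the 75th percentile moved the median difference of all genes from 0.03 to 0.09. For genes outside the members and for list counts, 456 of 498 combinations with an alternative gave the same call or a count within 1.5 times, 32 counts moved further, 9 calls were lost and 1 was gained. No called difference changed direction. The causes were not tested. There are no detection calls, so differences of dim genes such as Ms4a1, Ms4a2 and Ms4a4b are limited by signal over background.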

Other observations

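Within the cluster lies a gene that is no Ms4a gene, the long noncoding RNA gene AW112010, between Ms4a18 and Ms4a8a in the RefSeq order. It was named outside the rule for named genes. It stood at 11.43, 10.86 and 10.83 on the dendritic and 9.55, 8.92 and 8.97 on the macrophage arrays, a difference of 1.89 ± 0.22 (limma adjusted p = 0.000274), opposite in direction to the called Ms4a genes. On either side of the cluster, Ccdc86 differed by -0.36 ± 0.16 (adjusted p = 0.157, above the threshold), and Oosp2, an oocyte-secreted protein gene, was dim at 2.85 to 3.82 and higher in the dendritic population by 0.66 ± 0.14 (adjusted p = 0.00896).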
